A study of Mus musculus with 18 samples.

Results

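The transporters that carry sodium, calcium, protons, bicarbonate and chloride across the membranes of dorsal root ganglion (DRG) cells were examined in mice lacking Nav1.7, Nav1.8 or Nav1.9. Genes were taken by their symbol in the platform annotation: the sodium pump subunits (Atp1a and Atp1b), the calcium pumps (Atp2a and Atp2b), the sodium-calcium exchangers (Slc8a, Slc8b1 and Slc24a), the sodium-proton exchangers (Slc9a), the bicarbonate transporters (Slc4a) and the cation-chloride cotransporters (Slc12a). This gave 44 of the 18193 genes measured, with 94 probe sets named for 1 of them alone. Each gene was represented by the brightest of its probe sets.

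RNA of whole DRG from all spinal levels was hybridised to Affymetrix mouse genome arrays, 3 KO and 3 littermate arrays for each of the 3 lines, 18 arrays in 6 groups. Nav1.7 KO mice carried floxed *Scn9a* and Cre recombinase under the control of the Advillin gene *Avil*, which directs the deletion to sensory neurons. Nav1.8 KO (*Scn10a*) and Nav1.9 KO (*Scn11a*) mice were global null mutants. Whether the littermates of the Nav1.7 line carried floxed alleles or Cre is not given in the labels, and neither are the sex and age of the animals behind each array. The study used adult mice of both sexes. The source names of all 18 samples read littermate control, so groups were taken from titles and genotypes. The sources do not say if an array stands for 1 animal, and p-values measure the spread between these samples, which may be partly technical. All values are log2 intensities. The level of 1 probe set cannot be set against that of another.

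The sodium pump exchanges intracellular sodium for extracellular potassium at the cost of ATP and so restores the gradient that voltage-gated sodium channels run down. At the plasma membrane, sodium-calcium exchangers, sodium-proton exchangers and many bicarbonate and chloride cotransporters are driven by that gradient. The plasma membrane and endoplasmic reticulum calcium pumps use ATP directly. Primary sensory neurons keep a high internal chloride concentration, which is attributed to the sodium-potassium-chloride cotransporter NKCC1 (*Slc12a2*) and to a low level of the potassium-chloride cotransporter KCC2 (*Slc12a5*), so that GABA depolarizes them.

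The labels were checked first. *Scn10a* was -1.57 on the log2 scale in Nav1.8 KO against its littermates (adjusted p = 5.4e-05 from limma), and *Scn11a* was -1.85 in Nav1.9 KO (adjusted p = 7.13e-07). *Scn9a* did not pass in Nav1.7 KO (-0.064, adjusted p = 0.642). Its probe sets were not placed relative to the deleted exons, so this value does not check the deletion. The driver gene *Avil* was itself lower in Nav1.7 KO, by 1.56-fold (log2 fold change of -0.64, adjusted p = 8.03e-08), and loss of the channel, the presence of Cre and lower *Avil* cannot be told apart in this line. Of 15 sensory neuron markers measured, 0 passed in limma in Nav1.7 KO and 7 had an unadjusted p under 0.05 (6 lower and 1 higher, against 16.3% of all genes), and their mean level was 12.65 in each littermate array and 12.56 to 12.58 in the KO arrays. The list included the channel genes *Scn9a*, *Scn10a* and *Scn11a*, with means of 12.31, 9.46 and 13.32 in the littermates and 12.25, 9.08 and 13.01 in KO. Of the 15 log2 fold changes, 12 were below 0 and 3 above. The share of the channel genes in the shift of the mean was not tested. Macrophage markers averaged 7.15 to 7.49 in the Nav1.7 littermates and 7.54 to 7.95 in the KO arrays. Of 11, 1 passed the test (*Adgre1*, higher in KO), against 4.33% of all genes. An unadjusted p under 0.05 was met by 6, all higher in KO, against 16.3% of all genes. All 11 had a log2 fold change above 0, with a median of 0.38. Of 10 satellite glia markers 1 rose (*Fabp7*, log2 fold change of 0.36, adjusted p = 0.0175 from limma), as did 1.81% of all genes. Of 9 markers of Schwann cells and myelin 0 passed, against 4.33% of all genes. The part of these shifts in the values of the transporters was not tested. The transcript *Xist*, which marks female cells, was high in 7 arrays and low in 11. It was high in all Nav1.7 littermates, Nav1.7 KO replicates 1 and 3 and Nav1.8 KO replicates 2 and 3. All Nav1.8 littermates and all arrays of the Nav1.9 line were low. The class thus went largely with the line, and was uneven between KO and littermates in the Nav1.7 and Nav1.8 lines.

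Genes for calcium exchange and pumping, sodium-proton exchange and potassium-chloride cotransport changed in Nav1.7 KO DRG, and 1 calcium pump gene in Nav1.9 KO DRG. In Nav1.7 KO, 7 of the 44 genes passed an adjusted p of 0.05 (15.9%), against 4.33% of all genes. *Slc8a1*, *Atp2b2*, *Slc12a7*, *Slc9a7* and *Slc9a2* fell, as did 2.51% of all genes, and *Slc8b1* and *Slc9a9* rose, as did 1.81%. In Nav1.9 KO, 1 gene passed, *Atp2b3*, which rose (2.27%, against 0.473% of all genes, and 0.159% that rose). In Nav1.8 KO, 0 of the 44 genes passed in limma, against 0.0165% of all genes, and 5 had an unadjusted p under 0.05, against 8.09% of all genes. The unadjusted threshold was met by 15 transporter genes in Nav1.7 KO (5 higher and 10 lower, against 16.3% of all genes) and by 6 in Nav1.9 KO (3 higher and 3 lower, against 12.1%). The median log2 fold change of the 44 genes was -0.021 for Nav1.7 loss, -0.029 for Nav1.8 loss and 0.023 for Nav1.9 loss, and 0.0081, -0.014 and 0.0024 over all genes. KO and littermate arrays did not overlap for 17 of the 44 genes in the Nav1.7 line, against 20.4% of all genes, for 10 in the Nav1.8 line, against 13.8%, and for 9 in the Nav1.9 line, against 18%. When the Nav1.7 line was fitted alone, 3 of the 7 passed, together with *Atp2b1*. Of the 7, 4 passed without Nav1.7 littermate replicate 1 or without littermate replicate 3. The call in Nav1.9 KO was lost when that line was fitted alone, without Nav1.9 littermate replicate 3 and without Nav1.9 KO replicate 2. In whole ganglia, fewer cells of a type and less RNA per cell cannot be told apart.

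**Figure D1:**
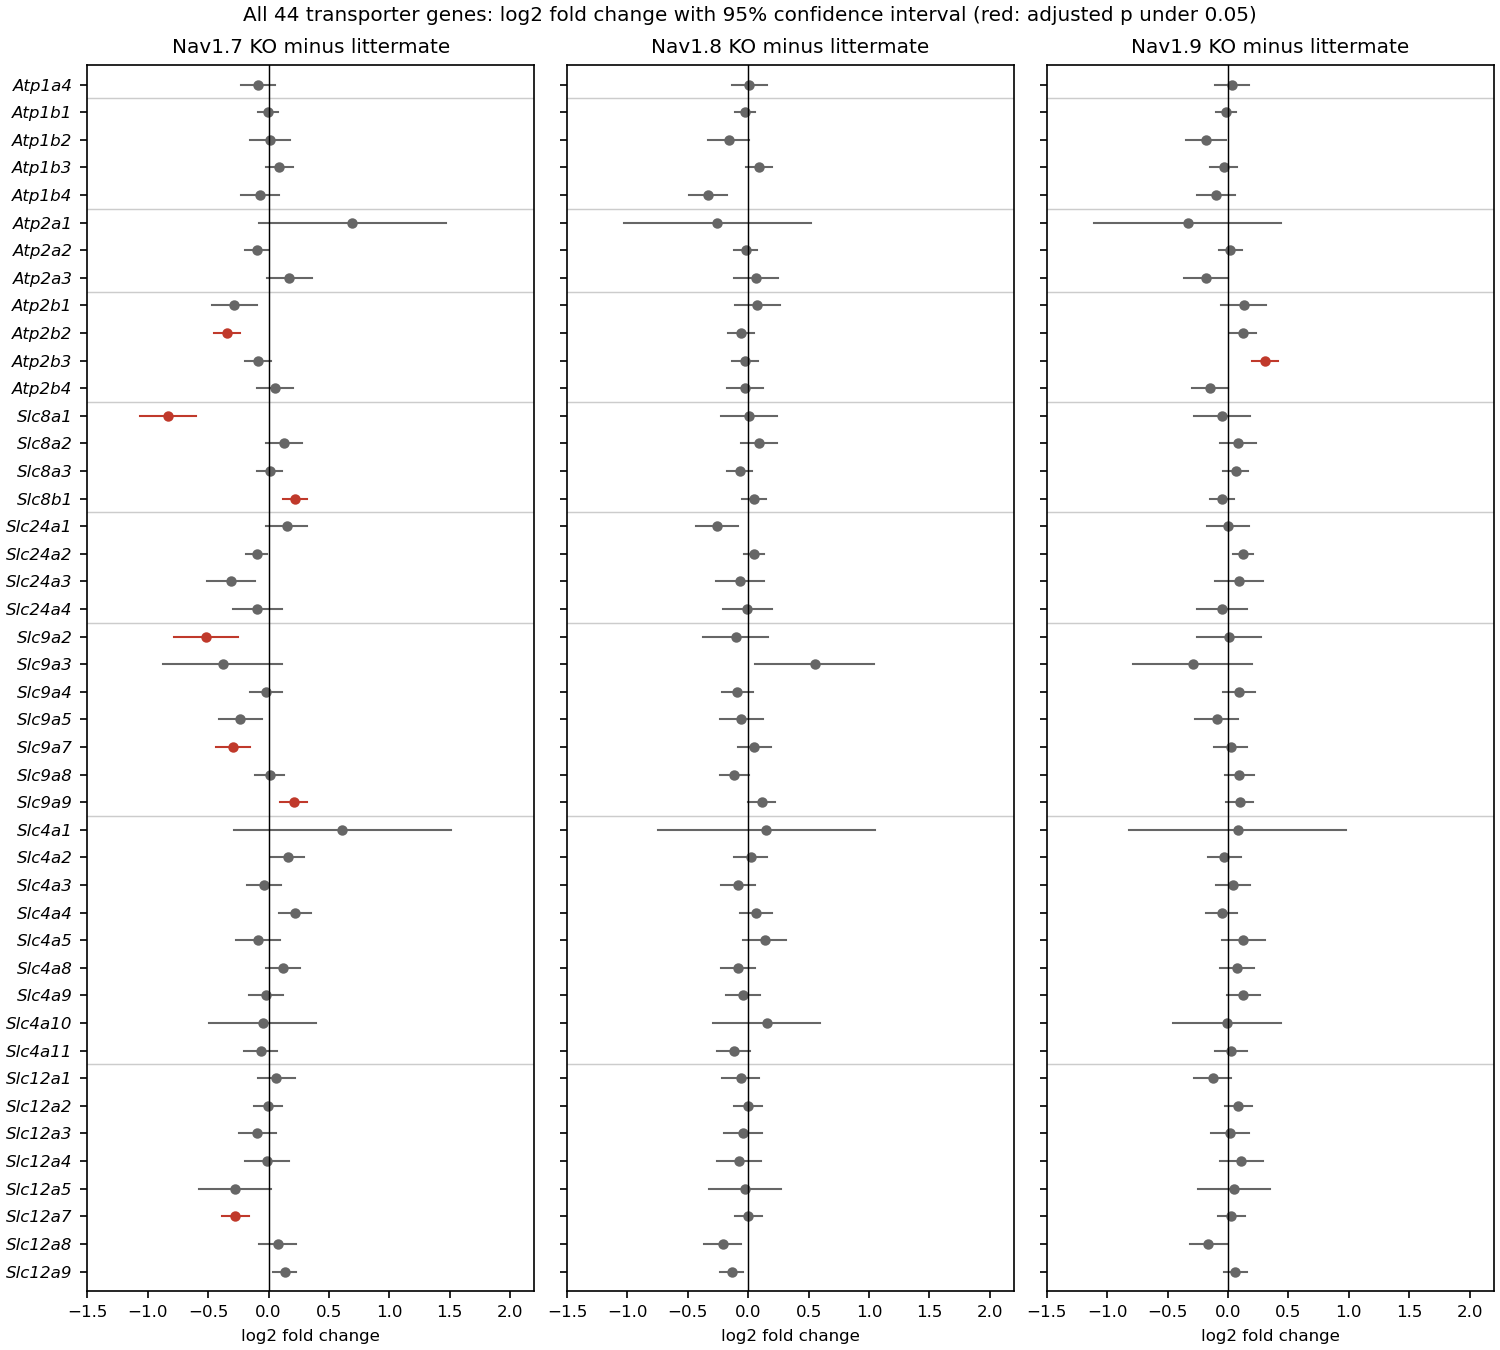
Log2 fold change (KO minus littermate, x axis) of each of the 44 transporter genes (y axis, grouped by family from sodium pumps at the top to cation-chloride cotransporters at the bottom) in the 3 lines, with points for the estimate, lines for its 95% confidence interval and red for an adjusted p under 0.05. There are 7 red points for Nav1.7, none for Nav1.8 and 1 for Nav1.9, and the widest intervals are those of *Atp2a1*, *Slc4a1*, *Slc9a3* and *Slc4a10*.

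Among the sodium-calcium exchangers, *Slc8a1* fell and *Slc8b1* rose in Nav1.7 KO DRG, while *Slc8a2* and *Slc8a3* did not pass. *Slc8a1* encodes NCX1, the plasma membrane exchanger that moves calcium out of the cell against an inward flow of sodium. In the Nav1.7 line its values were 7.22, 7.24 and 6.91 in the littermate arrays and 6.34, 6.21 and 6.31 in the KO arrays. They were 6.81, 6.95 and 7.02 in the littermate arrays and 6.97, 6.92 and 6.91 in the KO arrays in the Nav1.8 line, and 7.02, 6.997 and 6.84 in the littermate arrays and 6.63, 6.94 and 7.15 in the KO arrays in the Nav1.9 line. The Nav1.7 KO arrays lay below all 15 other arrays. *Slc8a1* was 1.78-fold lower in Nav1.7 KO, with a log2 fold change of -0.83 ± 0.11 (SE, n = 3 arrays a group, adjusted p = 0.000259 from limma), whereas loss of Nav1.8 gave 0.0066 (adjusted p = 0.992) and loss of Nav1.9 -0.048 (adjusted p = 0.911). It passed in each of 18 fits that left out 1 array, with adjusted p-values of 4.11e-05 to 0.00242. *Slc8a1* has 4 probe sets, and the fall was not seen in all of them: their log2 fold changes in Nav1.7 KO were -0.83, -0.49, -0.11 and 0.01, of which the brightest alone passed.

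*Slc8b1* encodes the sodium-calcium exchanger of the inner mitochondrial membrane (NCLX), which lets calcium out of mitochondria. Its values were 7.72, 7.78 and 7.85 in the littermate arrays and 7.97, 8.03 and 8.01 in the KO arrays in the Nav1.7 line, a log2 fold change of 0.22 ± 0.047 (SE, n = 3 arrays a group, adjusted p = 0.0114 from limma). They were 8.04, 7.996 and 8.08 in the littermate arrays and 8.12, 8.12 and 8.01 in the KO arrays in the Nav1.8 line, and 8.10, 8.08 and 8.07 in the littermate arrays and 7.999, 7.997 and 8.10 in the KO arrays in the Nav1.9 line. The Nav1.7 littermates were the lowest 3 arrays of the 18, and the Nav1.7 KO arrays reached 7.97 to 8.03, close to or within the range of the other lines (7.996 to 8.12). Without Nav1.7 littermate replicate 1, *Slc8b1* no longer passed (adjusted p = 0.06).

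*Slc8a2* and *Slc8a3* encode NCX2 and NCX3, the neuronal relatives of NCX1. *Slc8a2* stood at 5.68, 5.74 and 5.84 in the littermate arrays and 6.01, 5.79 and 5.85 in the KO arrays in the Nav1.7 line, at 5.82, 5.80 and 5.82 in the littermate arrays and 5.80, 5.91 and 5.998 in the KO arrays in the Nav1.8 line, and at 5.74, 5.96 and 5.88 in the littermate arrays and 5.96, 5.86 and 6.002 in the KO arrays in the Nav1.9 line. *Slc8a3* stood at 9.34, 9.35 and 9.40 in the littermate arrays and 9.45, 9.41 and 9.26 in the KO arrays in the Nav1.7 line, at 9.32, 9.22 and 9.20 in the littermate arrays and 9.19, 9.20 and 9.14 in the KO arrays in the Nav1.8 line, and at 9.20, 9.25 and 9.20 in the littermate arrays and 9.29, 9.31 and 9.25 in the KO arrays in the Nav1.9 line. In the Nav1.7 line the arrays of both groups overlapped for each gene, in the Nav1.8 line the KO values of *Slc8a3* lay just below those of the littermates, and the 95% confidence intervals of the log2 fold change in Nav1.7 KO were -0.020 to 0.28 for *Slc8a2* and -0.094 to 0.11 for *Slc8a3*. Adjusted p-values over the 3 lines were 0.394, 0.776 and 0.697 for *Slc8a2*, and 0.951, 0.745 and 0.655 for *Slc8a3*.

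Of the 4 plasma membrane calcium pumps, *Atp2b2* fell in Nav1.7 KO and *Atp2b3* rose in Nav1.9 KO. *Atp2b2* (PMCA2) is a fast pump found mainly in neurons and hair cells. Its values were 10.47, 10.49 and 10.57 in the littermate arrays and 10.23, 10.18 and 10.08 in the KO arrays in the Nav1.7 line, which is 1.27-fold lower in KO, with a log2 fold change of -0.35 ± 0.050 (SE, n = 3 arrays a group, adjusted p = 0.000638 from limma). They were 10.37, 10.34 and 10.22 in the littermate arrays and 10.31, 10.24 and 10.20 in the KO arrays in the Nav1.8 line, and 10.24, 10.23 and 10.18 in the littermate arrays and 10.34, 10.33 and 10.37 in the KO arrays in the Nav1.9 line. The Nav1.7 littermates were the highest 3 of the 18 arrays. The Nav1.7 KO arrays lay at 10.08 to 10.23 with a mean of 10.16, partly below the range of the other lines (10.18 to 10.37). In the Nav1.9 line the KO arrays lay above the littermates, and *Atp2b2* did not pass there (0.13, adjusted p = 0.318). The fall in Nav1.7 KO passed in each of 18 fits without 1 array, with adjusted p-values of 0.000459 to 0.00481. All 3 probe sets of *Atp2b2* were lower in Nav1.7 KO, with log2 fold changes of -0.35, -0.44 and -0.31, and the first and second passed over all probe sets.

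*Atp2b3* (PMCA3), an X-linked pump found mainly in neurons, stood at 10.60, 10.63 and 10.51 in the littermate arrays and 10.87, 10.95 and 10.86 in the KO arrays in the Nav1.9 line. It was 1.24-fold higher in Nav1.9 KO, with a log2 fold change of 0.31 ± 0.051 (SE, n = 3 arrays a group, adjusted p = 0.0121 from limma). Its values were 10.89, 10.87 and 10.92 in the littermate arrays and 10.89, 10.75 and 10.78 in the KO arrays in the Nav1.7 line, and 10.98, 10.93 and 10.94 in the littermate arrays and 10.97, 10.97 and 10.83 in the KO arrays in the Nav1.8 line. The Nav1.9 littermates were the lowest 3 of the 18 arrays, and the Nav1.9 KO arrays lay within the range of the other lines (10.75 to 10.98). All 6 arrays of the Nav1.9 line were in the low *Xist* class. *Atp2b3* no longer passed without Nav1.9 littermate replicate 3 (adjusted p = 0.0663) or Nav1.9 KO replicate 2 (adjusted p = 0.0547). Its dimmer probe set had a log2 fold change of 0.19 in Nav1.9 KO (0.339 when adjusted over all probe sets).

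*Atp2b1* (PMCA1), the pump of most tissues, was 11.28, 11.35 and 11.34 in the littermate arrays and 11.08, 10.99 and 11.05 in the KO arrays in the Nav1.7 line. It was 10.79, 10.76 and 10.73 in the littermate arrays and 10.89, 10.76 and 10.84 in the KO arrays in the Nav1.8 line, and 11.03, 10.75 and 10.76 in the littermate arrays and 11.11, 11.08 and 10.73 in the KO arrays in the Nav1.9 line. The Nav1.7 KO arrays were all lower than their littermates, but the difference did not pass (-0.28, adjusted p = 0.0893), except with each line fitted alone (adjusted p = 0.0411) and without Nav1.9 KO replicate 3 (0.0212). *Atp2b4* (PMCA4) did not pass in any line, with an unadjusted p of 0.0498 in Nav1.9 KO (log2 fold change of -0.15).

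**Figure D2:**
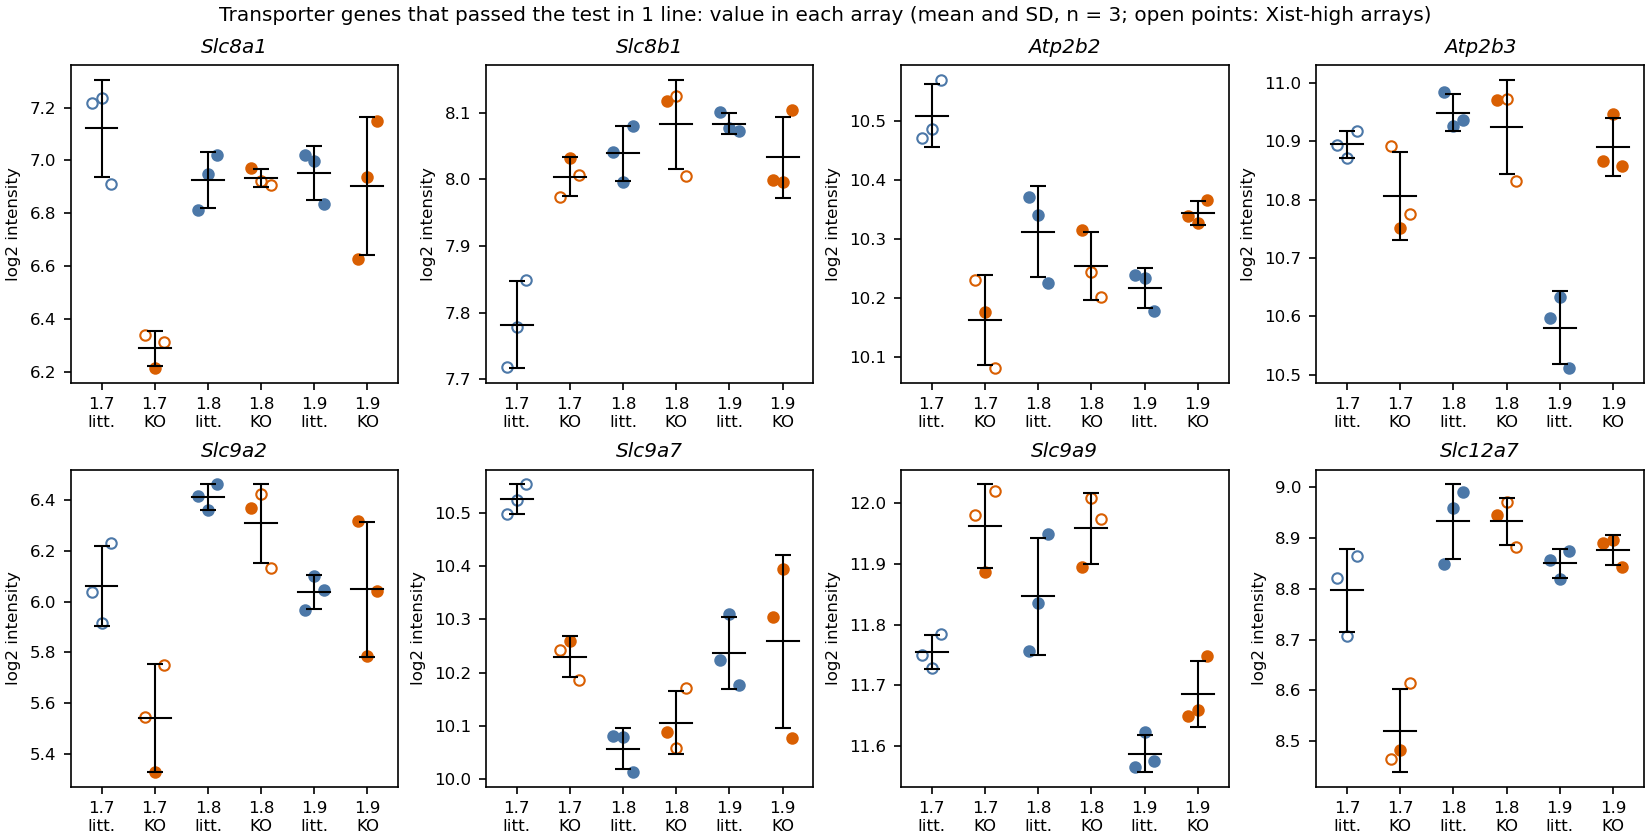
Log2 intensity (y axis) in each of the 18 arrays of the 8 transporter genes that passed the test in 1 line, by line and group (x axis, littermate in blue and KO in orange), with bars for the mean and SD of 3 arrays and open points for arrays with high *Xist*. For *Slc8a1*, *Slc12a7* and *Slc9a2* the Nav1.7 KO arrays lie below the arrays of the other lines, and for *Atp2b2*, *Slc9a7* and *Slc8b1* all Nav1.7 littermates stand apart, as do the Nav1.9 littermates for *Atp2b3*. The mean of the Nav1.7 KO arrays for *Atp2b2* lies below the other lines.

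The sodium-proton exchangers moved in both directions in Nav1.7 KO, where 2 of 7 fell (*Slc9a7* and *Slc9a2*) and 1 rose (*Slc9a9*). *Slc9a7* (NHE7) is an X-linked exchanger of the trans-Golgi network. Its values were 10.50, 10.52 and 10.55 in the littermate arrays and 10.24, 10.26 and 10.19 in the KO arrays in the Nav1.7 line, with a log2 fold change of -0.29 ± 0.065 (SE, n = 3 arrays a group, adjusted p = 0.0149 from limma). They were 10.08, 10.08 and 10.01 in the littermate arrays and 10.09, 10.06 and 10.17 in the KO arrays in the Nav1.8 line, and 10.22, 10.31 and 10.18 in the littermate arrays and 10.30, 10.39 and 10.08 in the KO arrays in the Nav1.9 line. The Nav1.7 littermates were the highest 3 of the 18 arrays. Nav1.7 KO replicate 2, the low *Xist* array of its group, was at 10.26, and with the *Xist* class as a term the adjusted p was 0.0294. *Slc9a7* no longer passed without Nav1.7 littermate replicate 3 (adjusted p = 0.0586).

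*Slc9a2* (NHE2) is a plasma membrane exchanger best known from epithelia. It was 6.04, 5.91 and 6.23 in the littermate arrays and 5.55, 5.33 and 5.75 in the KO arrays in the Nav1.7 line, with a log2 fold change of -0.52 ± 0.13 (SE, n = 3 arrays a group, adjusted p = 0.0263 from limma). It was 6.42, 6.36 and 6.46 in the littermate arrays and 6.37, 6.42 and 6.13 in the KO arrays in the Nav1.8 line, and 5.97, 6.10 and 6.05 in the littermate arrays and 6.32, 5.79 and 6.04 in the KO arrays in the Nav1.9 line. The Nav1.7 KO arrays were the lowest 3 of the 18. *Slc9a2* no longer passed without Nav1.7 littermate replicate 1 or 3 (adjusted p = 0.0665 and 0.115), nor without Nav1.7 KO replicate 1 or 2 (adjusted p = 0.0698 and 0.122).

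*Slc9a9* (NHE9), an exchanger of recycling endosomes, was 11.75, 11.73 and 11.78 in the littermate arrays and 11.98, 11.89 and 12.02 in the KO arrays in the Nav1.7 line, with a log2 fold change of 0.21 ± 0.053 (SE, n = 3 arrays a group, adjusted p = 0.0344 from limma). It was 11.76, 11.83 and 11.95 in the littermate arrays and 11.89, 12.01 and 11.97 in the KO arrays in the Nav1.8 line, and 11.57, 11.62 and 11.57 in the littermate arrays and 11.65, 11.66 and 11.75 in the KO arrays in the Nav1.9 line. In the Nav1.7 line the groups did not overlap, but 1 or more arrays of each lay within the range of the other lines (11.57 to 12.01). The KO mean was the higher one in Nav1.8 KO (0.11, adjusted p = 0.612) and Nav1.9 KO too (0.098, adjusted p = 0.487), where the gene did not pass. *Slc9a9* no longer passed when Nav1.7 littermate replicate 1, 2 or 3 was omitted (adjusted p = 0.094, 0.112 and 0.0644) or without Nav1.7 KO replicate 1 or 3 (0.102 and 0.111). Its other 3 probe sets had log2 fold changes of 0.057, 0.013 and -0.17 in Nav1.7 KO, and as the mean of 4 probe sets *Slc9a9* was at 0.027 (adjusted p = 0.894). Those 3 were, in the same order, at 0.56, -0.27 and -0.10 in Nav1.8 KO and at 0.24, -0.080 and -0.097 in Nav1.9 KO. None of these values passed over all probe sets.

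By the brightest probe set of each gene, *Slc9a3* (NHE3), best known from kidney and gut, was the exchanger with the smallest p in Nav1.8 KO. It was at 6.08, 6.01 and 5.995 in the littermate arrays and 6.18, 6.88 and 6.69 in the KO arrays. It did not pass there (0.55, adjusted p = 0.573). The 2 higher KO arrays, replicates 2 and 3, were those in the high *Xist* class, and with that class as a term the log2 fold change of *Slc9a3* was 0.16 (adjusted p = 0.998). *Slc9a4*, *Slc9a5* and *Slc9a8* did not pass in any line, with *Slc9a5* (NHE5, a neuronal exchanger) at -0.23 in Nav1.7 KO (adjusted p = 0.153). *Slc9a4* was at -0.021, -0.090 and 0.093 and the Golgi exchanger *Slc9a8* (NHE8) at 0.011, -0.11 and 0.092 for loss of Nav1.7, of Nav1.8 and of Nav1.9.

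Of the 8 cation-chloride cotransporters, 1 passed in 1 line: *Slc12a7* (KCC4), a potassium-chloride cotransporter that moves chloride out of cells, fell in Nav1.7 KO. Its values were 8.82, 8.71 and 8.86 in the littermate arrays and 8.47, 8.48 and 8.61 in the KO arrays in the Nav1.7 line, with a log2 fold change of -0.28 ± 0.053 (SE, n = 3 arrays a group, adjusted p = 0.00588 from limma). They were 8.85, 8.96 and 8.99 in the littermate arrays and 8.94, 8.97 and 8.88 in the KO arrays in the Nav1.8 line, and 8.86, 8.82 and 8.87 in the littermate arrays and 8.89, 8.90 and 8.84 in the KO arrays in the Nav1.9 line. The Nav1.7 KO arrays were the lowest 3 of the 18, and the gene passed in each of 18 fits without 1 array (adjusted p = 0.00312 to 0.0361). Its dimmer probe set was also lower, with a log2 fold change of -0.21 that missed the threshold (0.248 when adjusted over all probe sets).

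*Slc12a2* (NKCC1), which loads sensory neurons with chloride, did not pass in any line. It was 12.58, 12.54 and 12.49 in the littermate arrays and 12.62, 12.51 and 12.47 in the KO arrays in the Nav1.7 line, 12.32, 12.31 and 12.27 in the littermate arrays and 12.30, 12.30 and 12.31 in the KO arrays in the Nav1.8 line, and 12.34, 12.36 and 12.54 in the littermate arrays and 12.55, 12.52 and 12.44 in the KO arrays in the Nav1.9 line. The 95% confidence intervals of its log2 fold change, by the brightest probe set, were -0.12 to 0.11, -0.11 to 0.12 and -0.029 to 0.20 for loss of Nav1.7, of Nav1.8 and of Nav1.9. Its dimmer probe sets were at -0.27 and 0.0060, at 0.20 and -0.021, and at 0.16 and 0.43 in the same order. None of these passed over all probe sets. As the mean of all probe sets, *Slc12a2* passed in the difference between Nav1.7 and Nav1.9 KO. *Slc12a5* (KCC2) was 5.73, 6.04 and 6.46 in the littermate arrays and 5.91, 5.82 and 5.67 in the KO arrays in the Nav1.7 line, 5.83, 6.15 and 5.97 in the littermate arrays and 6.01, 6.02 and 5.84 in the KO arrays in the Nav1.8 line, and 5.84, 5.70 and 5.72 in the littermate arrays and 5.76, 5.67 and 5.97 in the KO arrays in the Nav1.9 line. Nav1.7 littermate replicate 3 stood above all other arrays for *Slc12a5*, and the gene did not pass in Nav1.7 KO (-0.28, adjusted p = 0.352).

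*Slc12a8* and *Slc12a9*, members of the family whose transport is less well known, had the smallest p of the family in Nav1.9 and Nav1.8 KO. *Slc12a8* was 4.44, 4.35 and 4.42 in the littermate arrays and 4.18, 4.34 and 4.20 in the KO arrays in the Nav1.9 line (log2 fold change of -0.16, adjusted p = 0.378). *Slc12a9* was 7.82, 7.83 and 7.79 in the littermate arrays and 7.70, 7.69 and 7.64 in the KO arrays in the Nav1.8 line (-0.14, adjusted p = 0.495) and 7.49, 7.65 and 7.62 in the littermate arrays and 7.72, 7.73 and 7.72 in the KO arrays in the Nav1.7 line (0.13, adjusted p = 0.127). The groups did not overlap for *Slc12a9* in either line, and neither gene passed in a comparison of KO with littermates. Log2 fold changes over the lines lay between -0.13 and 0.064 for *Slc12a1* (NKCC2) and -0.093 and 0.019 for *Slc12a3* (NCC), both known from the kidney, and between -0.078 and 0.11 for *Slc12a4* (KCC1).

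The 4 potassium-dependent sodium-calcium exchangers, which move potassium along with calcium out of the cell, did not pass in any line. *Slc24a3* (NCKX3) came nearest in Nav1.7 KO, at 9.80, 9.57 and 9.56 in the littermate arrays and 9.40, 9.07 and 9.53 in the KO arrays, with a log2 fold change of -0.31 ± 0.093 (SE, n = 3 arrays a group, adjusted p = 0.0781 from limma). The groups did not overlap. *Slc24a3* was at -0.41 and passed without Nav1.7 KO replicate 3 (adjusted p = 0.0178), and was at -0.18 without Nav1.7 KO replicate 2 (0.263). It also passed with dim genes left out (adjusted p = 0.0497). *Slc24a2* (NCKX2), the neuronal form, was 11.41, 11.43 and 11.32 in the littermate arrays and 11.53, 11.48 and 11.53 in the KO arrays in the Nav1.9 line (0.12, adjusted p = 0.217), and 11.39, 11.40 and 11.40 in the littermate arrays and 11.32, 11.23 and 11.34 in the KO arrays in the Nav1.7 line (-0.097, adjusted p = 0.23). *Slc24a1* (NCKX1), the form of rod photoreceptors, was 3.69, 3.57 and 3.80 in the littermate arrays and 3.48, 3.34 and 3.47 in the KO arrays in the Nav1.8 line (-0.26, adjusted p = 0.494). *Slc24a4* (NCKX4) lay between -0.092 and -0.0077 in log2 fold change over the lines.

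None of the 9 bicarbonate transporters passed in any line, with 2 at an unadjusted p under 0.05 in Nav1.7 KO (against 16.3% of all genes) and 0 in the other lines (against 8.09% for Nav1.8 and 12.1% for Nav1.9). *Slc4a4* (NBCe1), a sodium-bicarbonate cotransporter found in glia, came nearest, at 10.45, 10.38 and 10.32 in the littermate arrays and 10.67, 10.53 and 10.62 in the KO arrays in the Nav1.7 line, with a log2 fold change of 0.22 ± 0.062 (SE, n = 3 arrays a group, adjusted p = 0.0575 from limma). The KO arrays were all above their littermates, and it passed in 2 of 18 fits without 1 array, those without Nav1.9 littermate replicate 1 (adjusted p = 0.0241) or 2 (0.0349). *Slc4a4* also passed with dim genes left out (adjusted p = 0.0314), with the trend and robust prior (0.0253) and with the *Xist* class as a term (0.0498). *Slc4a10* (NCBE), a neuronal sodium-driven bicarbonate transporter, lies on chromosome 2 with 16 protein-coding genes between it and *Scn9a*. It was 8.57, 8.28 and 8.80 in the littermate arrays and 8.47, 8.27 and 8.77 in the KO arrays in the Nav1.7 line, 8.77, 8.74 and 9.22 in the littermate arrays and 8.72, 9.24 and 9.23 in the KO arrays in the Nav1.8 line, and 8.58, 9.03 and 9.14 in the littermate arrays and 9.28, 8.62 and 8.83 in the KO arrays in the Nav1.9 line. These values spread widely within groups, and the 95% confidence interval of its log2 fold change in Nav1.7 KO was -0.49 to 0.40 (adjusted p = 0.947).

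*Slc4a3* (AE3), the anion exchanger of neurons and heart, was 7.82, 7.76 and 7.63 in the littermate arrays and 7.76, 7.80 and 7.53 in the KO arrays in the Nav1.7 line. It was 7.74, 7.74 and 7.78 in the littermate arrays and 7.70, 7.62 and 7.69 in the KO arrays in the Nav1.8 line, and 7.74, 7.61 and 7.75 in the littermate arrays and 7.77, 7.70 and 7.74 in the KO arrays in the Nav1.9 line. No line separated in the test, with adjusted p-values of 0.832, 0.781 and 0.87. *Slc4a11* had the smallest p of the family in Nav1.8 KO, at 8.22, 8.19 and 8.23 in the littermate arrays and 8.13, 8.06 and 8.09 in the KO arrays (-0.12, adjusted p = 0.65). *Slc4a9* had the smallest in Nav1.9 KO, at 4.89, 5.07 and 5.06 in the littermate arrays and 5.05, 5.12 and 5.24 in the KO arrays (0.13, adjusted p = 0.455). *Slc4a2* (AE2), the anion exchanger of many tissues, had a log2 fold change of 0.16 in Nav1.7 KO (unadjusted p = 0.0283, adjusted p = 0.23). The sodium-driven transporters *Slc4a5* and *Slc4a8* lay between -0.090 and 0.13 and between -0.085 and 0.12 over the lines.

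The sodium pump genes measured here did not pass in any line. Of the catalytic subunits, 1 had a probe set named for it alone, *Atp1a4*, the form of sperm, and the others were not analysed here. *Atp1a4* was 4.999, 4.89 and 4.93 in the littermate arrays and 4.85, 4.93 and 4.78 in the KO arrays in the Nav1.7 line (-0.087, adjusted p = 0.583), 4.72, 4.86 and 4.87 in the littermate arrays and 4.95, 4.70 and 4.82 in the KO arrays in the Nav1.8 line, and 4.84, 4.69 and 4.82 in the littermate arrays and 4.83, 4.76 and 4.86 in the KO arrays in the Nav1.9 line. *Atp1b1*, the beta subunit of most tissues, was 13.33, 13.42 and 13.37 in the littermate arrays and 13.39, 13.35 and 13.37 in the KO arrays in the Nav1.7 line, 13.49, 13.47 and 13.40 in the littermate arrays and 13.46, 13.41 and 13.41 in the KO arrays in the Nav1.8 line, and 13.45, 13.43 and 13.46 in the littermate arrays and 13.47, 13.38 and 13.43 in the KO arrays in the Nav1.9 line. All 18 values of the brightest *Atp1b1* probe set lay between 13.33 and 13.49, and the 95% confidence intervals of its log2 fold change were -0.084 to 0.081, -0.11 to 0.053 and -0.10 to 0.064. Of its other 4 probe sets, 2 lay above the interval of the brightest in Nav1.8 KO, at 0.15 and 0.19 (adjusted p = 0.544 and 0.53 from limma over all probe sets).

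Other beta subunits reached the unadjusted threshold in 1 line each at most. *Atp1b4*, an X-linked relative that is not part of the pump in placental mammals, was 3.56, 3.80 and 3.59 in the littermate arrays and 3.33, 3.31 and 3.32 in the KO arrays in the Nav1.8 line, with a log2 fold change of -0.33 ± 0.074 (SE, n = 3 arrays a group, adjusted p = 0.251 from limma). The groups did not overlap there, and Nav1.8 KO replicates 2 and 3 were in the high *Xist* class and the other 4 arrays of the line in the low one. With the *Xist* class as a term the log2 fold change of *Atp1b4* was -0.35 (adjusted p = 0.831 from limma). *Atp1b2*, also a glial adhesion molecule, was 8.93, 9.07 and 9.19 in the littermate arrays and 8.94, 8.82 and 8.89 in the KO arrays in the Nav1.9 line (-0.18, adjusted p = 0.378). *Atp1b3* was 13.29, 13.28 and 13.19 in the littermate arrays and 13.32, 13.33 and 13.38 in the KO arrays in the Nav1.7 line (0.090, adjusted p = 0.43).

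None of the 3 calcium pumps of the endoplasmic reticulum passed in any line. *Atp2a2* (SERCA2), the form of most cells, was 12.55, 12.47 and 12.55 in the littermate arrays and 12.45, 12.42 and 12.40 in the KO arrays in the Nav1.7 line (-0.098, adjusted p = 0.281). *Atp2a3* (SERCA3) was 7.57, 7.58 and 7.76 in the littermate arrays and 7.52, 7.34 and 7.49 in the KO arrays in the Nav1.9 line (-0.18, adjusted p = 0.421) and 7.83, 7.57 and 7.76 in the littermate arrays and 7.71, 7.77 and 7.87 in the KO arrays in the Nav1.8 line (0.064, adjusted p = 0.89). *Atp2a1* (SERCA1), the pump of fast skeletal muscle, had the highest log2 fold change of the 44 genes in Nav1.7 KO, 0.69, and did not pass (adjusted p = 0.372).

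*Atp2a1* varied over the arrays with markers of skeletal muscle. The mean of 13 skeletal muscle markers ranged from 6.04 to 9.57 over the 18 arrays. Across them, *Atp2a1* correlated with that mean at r = 0.913 and rho = 0.899 (permutation p = 2e-05 for each, the smallest that 100000 resamples can give, 4e-05 adjusted over 2 relations). Without the 2 arrays farthest from the median, Nav1.7 KO replicate 1 and Nav1.9 littermate replicate 1, r was 0.878 (n = 16), and within the 6 arrays of the Nav1.7, Nav1.8 and Nav1.9 line it was 0.957, 0.956 and 0.945. *Slc4a1* (AE1, band 3), the anion exchanger of red blood cells, correlated with the mean of 5 erythroid markers at r = 0.803 (permutation p = 0.00018) and rho = 0.711 (permutation p = 0.00134), with the same values after adjustment over the 2 relations. Its r was 0.712 without Nav1.8 littermate replicates 1 and 3 (n = 16), and 0.433, 0.775 and 0.747 within the lines. The permutations mixed the arrays of all lines, so the p-values of both relations also take in differences between lines. *Ank1* and *Tfrc* of that list are also expressed in neurons. *Pvalb* of the muscle list is also in the list of sensory neuron markers. The 13 muscle markers did not differ between KO and littermates past the threshold in any line (0 passed in each, against 4.33%, 0.0165% and 0.473% of all genes). Their median log2 fold changes were 0.64, -0.57 and -0.51.

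**Figure D3:**
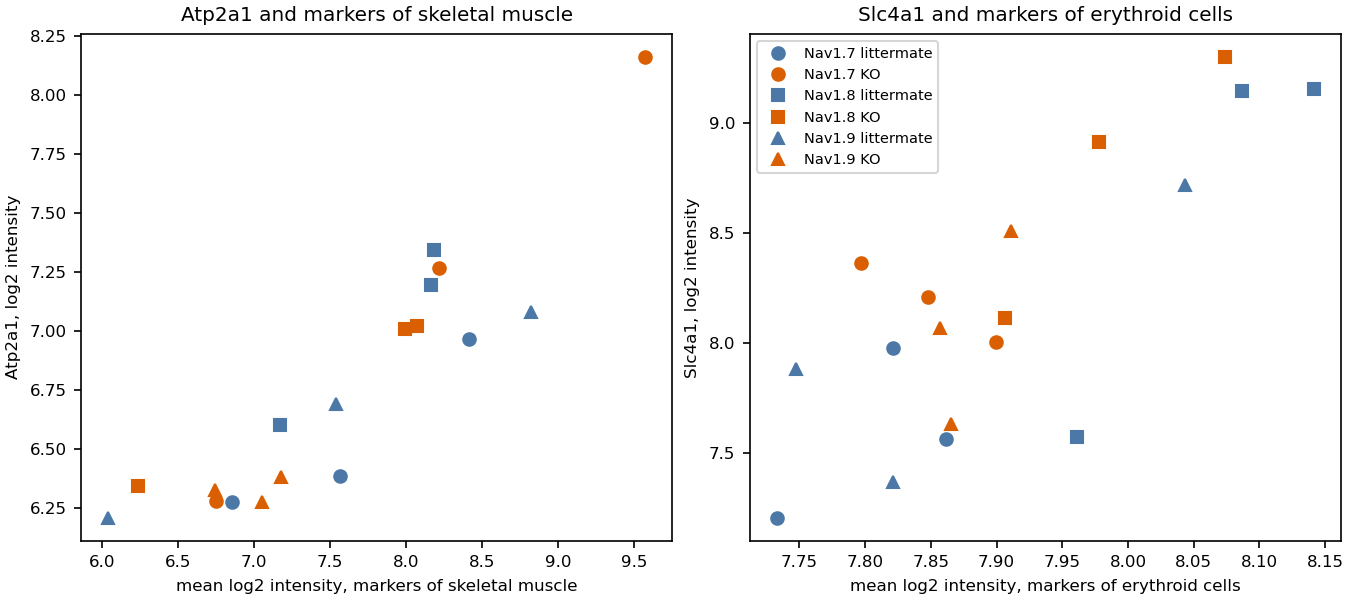
Left, log2 intensity of *Atp2a1* (y axis) against the mean log2 intensity of 13 skeletal muscle markers (x axis), and right, *Slc4a1* against the mean of 5 erythroid markers, with 1 point for each of the 18 arrays (shape for the line, blue for littermate and orange for KO). *Atp2a1* follows the muscle markers with r = 0.913, and *Slc4a1* the erythroid markers with r = 0.803.

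Genes for proteins that regulate these transporters were counted as a list. Of 44 measured, 2 passed in Nav1.7 KO, both of which fell, where 4.33% of all genes passed, and 0 in the other lines, where limma gave 3 (Nav1.8 KO, against 8.09% of all genes) and 7 (Nav1.9 KO, against 12.1%) at an unadjusted p under 0.05. *Fxyd2*, the gamma subunit that modulates the sodium pump, stood at 13.56, 13.62 and 13.55 in the Nav1.7 littermates and 13.28, 13.41 and 13.36 in the KO arrays (log2 fold change of -0.23 ± 0.06, SE, n = 3 arrays a group, adjusted p = 0.0359 from limma). The call was lost when littermate replicate 1, 2 or 3 was omitted (adjusted p = 0.0786, 0.129 and 0.0689) or without KO replicate 1 or 3 (0.145 and 0.0686). *Cab39l*, a partner of the kinases that phosphorylate chloride cotransporters, was 11.15, 11.15 and 11.12 in the littermates and 10.93, 10.99 and 10.87 in the KO arrays (-0.21 ± 0.04, SE, adjusted p = 0.00733 from limma). The count of 2 became 1 without Nav1.7 littermate replicate 2 or 3 or Nav1.7 KO replicate 1. It was 2 without littermate replicate 1 and without KO replicate 3, where *Oxsr1* (0.16, adjusted p = 0.0465) and *Sgk1* (-1.06, adjusted p = 0.00163), both kinases, passed with *Cab39l* in place of *Fxyd2*, and are named here after their values were seen. The groups did not overlap for *Fxyd2* or for *Cab39l*. *Fxyd2* is 1 of 15 pump regulators and *Cab39l* 1 of 11 genes of the kinase and ligase system that acts on the cotransporters, and of 18 exchanger partners and carbonic anhydrases 0 passed in any line.

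Whether a transporter responded differently in the lines was tested as a difference of differences. Nav1.7 and Nav1.8 KO differed for 3 of the 44 genes (6.82%, against 2.15% of all genes), Nav1.7 and Nav1.9 KO for 6 (13.6%, against 2.82%), and Nav1.8 and Nav1.9 KO for 0 in limma (against 0.0385%), with 7 at an unadjusted p under 0.05 (against 9.04%). The first pair of comparisons shares the Nav1.7 arrays. For *Slc8a1* the effect of Nav1.7 loss lay below that of Nav1.8 loss, with a log2 difference of -0.84 ± 0.16 (SE, adjusted p = 0.00869), and by -0.78 ± 0.16 against Nav1.9 KO (adjusted p = 0.0099), where each effect was taken against its own littermates. Both differences passed in each of 18 fits without 1 array. The pumps *Atp2b2* and *Atp2b3* differed between Nav1.7 and Nav1.9 KO by -0.47 ± 0.071 (adjusted p = 0.00143) and -0.40 ± 0.072 (adjusted p = 0.00556), and each passed in the same 18 fits. The other differences, of *Atp2b2*, *Slc12a7*, *Slc12a9*, *Slc24a2* and *Slc8b1*, were each lost in at least 1 of those fits. With the *Xist* class as a term, 0 genes differed between Nav1.7 and Nav1.8 KO and 3 between Nav1.7 and Nav1.9 KO, and with the replicate number as a block 1 and 2.

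The position of each group was read against the 12 arrays of the other lines. This describes position and does not tell which group changed, because lines also differ in both groups. All Nav1.7 arrays lay below the other lines for *Slc4a2* and *Slc12a4*, for example. The part of such line offsets, or of the *Xist* class, in these positions was not tested. The fits with the *Xist* class as a term concern the KO effects and their differences. Of the 7 genes that passed in Nav1.7 KO, all 3 KO arrays lay outside those 12 and some littermate within them for 3 (*Slc8a1*, *Slc12a7* and *Slc9a2*, all below). For another 3 all littermates lay outside and some KO array within (*Atp2b2* and *Slc9a7* above, *Slc8b1* below), and for *Slc9a9* neither group lay outside. The mean of the *Atp2b2* KO arrays, 10.16, lay below those 12 arrays (10.18 to 10.37). Over all 787 genes that passed in Nav1.7 KO, the KO arrays alone stood apart for 37.6% and the littermates alone for 19.4%. In the Nav1.9 line the littermates stood apart for *Atp2b3*, as they alone did for 24.4% of the 86 genes that passed there.

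Probe sets of 1 gene often disagreed. For 27 of the 44 genes more than 1 probe set was measured, and all probe sets of a gene had the same sign for 10, 12 and 11 of the 27 with Nav1.7, with Nav1.8 and with Nav1.9 lost. Of the 94 probe sets, 7 passed with Nav1.7 lost, 0 with Nav1.8 lost and 1 with Nav1.9 lost, adjusted over all 45037 probe sets, of which 2.27%, 0.00666% and 0.242% passed. Among the genes with several, all probe sets of *Atp2b2* and *Slc12a7* went down in Nav1.7 KO, and those of *Slc8a1* and *Slc9a9* did not share a sign. *Slc8b1*, *Slc9a2* and *Slc9a7* have 1 probe set each.

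**Figure D4:**
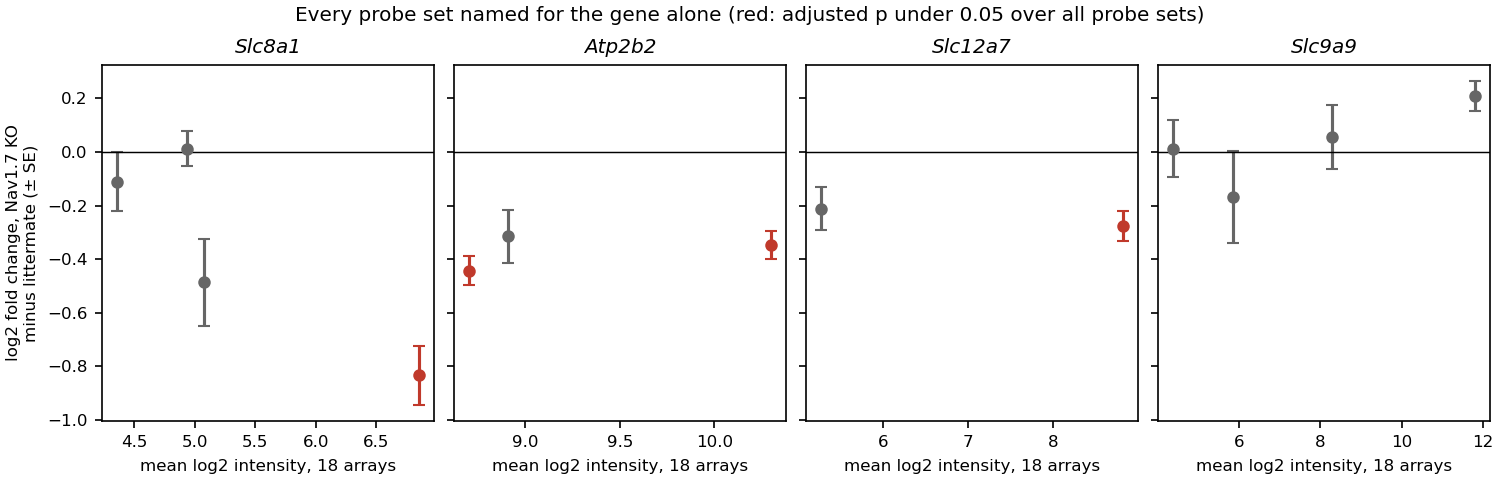
Log2 fold change in Nav1.7 KO (y axis, with bars for the SE) of every probe set of *Slc8a1*, *Atp2b2*, *Slc12a7* and *Slc9a9* against its mean log2 intensity over 18 arrays (x axis), with red for an adjusted p under 0.05 over all probe sets. The brightest *Slc8a1* probe set is at -0.83 and the others are between -0.49 and 0.01, and the 3 probe sets of *Atp2b2* lie between -0.44 and -0.31.

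The proximal promoters of the genes that fell in Nav1.7 KO are shown because these genes moved in the same direction and sodium-dependent control of transcription was a question of the study. They are the 250 bases before the transcription start in RefSeq on mouse build GRCm38.p6, 5′ to 3′ on the strand of the gene, and 4 of the 5 genes are in the table used here. Capitals mark GGAAA, the core bound by NFAT proteins, or its complement TTTCC. The study names a longer consensus for NFAT5, in which T stands directly before GGAAA. For *Atp2b2* (chr6:114042081-114042330, minus strand) and *Slc12a7* (chr13:73763410-73763659, plus strand) the table gives 3 and 2 starts, of which the most upstream was used. *Slc8a1* is at chr17:81738388-81738637 (minus strand) and *Slc9a7* at chrX:20291828-20292077 (minus strand).
Slc8a1: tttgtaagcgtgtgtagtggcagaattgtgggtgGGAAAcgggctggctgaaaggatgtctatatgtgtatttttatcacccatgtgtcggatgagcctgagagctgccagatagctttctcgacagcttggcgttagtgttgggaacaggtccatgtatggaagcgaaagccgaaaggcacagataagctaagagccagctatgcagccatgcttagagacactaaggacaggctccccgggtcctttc
Atp2b2: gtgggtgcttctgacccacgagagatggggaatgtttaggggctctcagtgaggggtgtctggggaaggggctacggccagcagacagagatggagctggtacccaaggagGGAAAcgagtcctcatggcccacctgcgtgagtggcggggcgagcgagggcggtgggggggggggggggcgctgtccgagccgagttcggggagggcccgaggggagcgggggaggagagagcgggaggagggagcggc
Slc12a7: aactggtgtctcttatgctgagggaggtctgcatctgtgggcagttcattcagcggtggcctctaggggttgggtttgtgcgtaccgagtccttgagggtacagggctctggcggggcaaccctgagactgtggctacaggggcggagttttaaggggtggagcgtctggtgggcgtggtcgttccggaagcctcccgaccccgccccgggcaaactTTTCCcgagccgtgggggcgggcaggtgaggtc
Slc9a7: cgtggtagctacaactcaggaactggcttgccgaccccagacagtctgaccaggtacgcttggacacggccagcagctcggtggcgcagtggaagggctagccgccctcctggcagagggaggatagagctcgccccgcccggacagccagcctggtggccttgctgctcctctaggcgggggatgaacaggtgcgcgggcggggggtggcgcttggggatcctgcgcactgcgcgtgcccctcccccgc

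Searched on both strands, GGAAA had 1 match each in *Slc8a1*, *Atp2b2* and *Slc12a7*, at 216, 139 and 33 bases before the start, and none in *Slc9a7*. It is a short motif with a match in 55.6% of 32817 mouse promoters of this length. TGTGGT, the core bound by Runx proteins, had no match in the 4 promoters (14.0% of all), and neither had TGACG, the site of CREB in its short form (17.7% of all). The matches are a description of the letters. In each GGAAA match G stands directly before it on the strand of the match, so none fits the NFAT5 consensus of the study. The promoters of *Slc8a1*, *Atp2b2*, *Slc12a7* and *Slc9a7* held 50.4%, 69.6%, 63.6% and 69.6% G and C, against a median of 52.4% over all promoters.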

How the data were processed

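RNA of whole DRG was measured in 18 samples on Affymetrix Mouse Genome arrays. The deposited values, 1 for each probe set on each array, are on the log2 scale by their range, and the authors made them in Affymetrix Expression Console per the submitters' processing notes. The summary method is not given in the sources used here, and detection calls were not used. Array medians lay between 6.33 and 6.36, and replicate arrays correlated at 0.996 to 0.998. The number of arrays limits the precision.

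Groups came from titles and genotypes. Leaving out 64 controls, 34945 probe sets carry 1 gene symbol in the platform annotation, 932 carry several (among them 1 for a transporter) and 9160 carry none here. The brightest probe set stood for each of 18193 genes, with no filter on dim values. RefSeq annotation served for chromosomes, gene order and promoters. A model of 6 group means without covariates was fitted with limma 3.58.1 in R 4.3.3, with 12 residual and 3.44 prior degrees of freedom. It gave the KO effect of each line and how these effects differ from line to line, two-sided, with p-values adjusted by Benjamini and Hochberg over all genes and a threshold of 0.05. An exact test of 3 arrays against 3 cannot go below 0.1.

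Values in each array are printed for genes past the threshold, the gene with the smallest p of each family in each line, and those chosen for a role in sensory neurons or for position. For genes named by their p alone they are those of the line concerned. The members, gene lists, motifs and tests were chosen with earlier results of these data known. The fit was tested on simulated data. Alternatives were separate fits of the lines, other scalings (quantile, median), leaving out genes below the 40th percentile, averaging the probe sets of a gene or testing them singly, leaving out those open to cross-hybridization, a robust prior with a trend, weighted arrays, a block for the replicate number, a term for the *Xist* class, the low *Xist* arrays of the Nav1.8 line, omission of each array, and the thresholds of the study (a fold change over 1.5 at an unadjusted p under 0.01, read here as a joint rule).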

Additional observations from a re-analysis of the deposited data

Results flagged for a closer look

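The effect of the KO differed between lines, by the test of the difference itself in limma, in 9 cases of 7 transporter genes. For *Slc8a1* the log2 difference was -0.84 for Nav1.7 minus Nav1.8 and -0.78 for Nav1.7 minus Nav1.9, and for *Atp2b2* and *Atp2b3* it was -0.47 and -0.40 for Nav1.7 minus Nav1.9. These 4 passed in each fit without 1 array. With the replicate number as a block the *Slc8a1* differences did not pass (adjusted p = 0.053 and 0.0537), nor did the first with the *Xist* class as a term (0.0942).

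The other 5 rested on most of the arrays. *Atp2b2* differed by -0.29 for Nav1.7 minus Nav1.8 (adjusted p = 0.0482) and, of the 18 fits without 1 array, passed only without Nav1.7 KO replicate 1 (0.0384). *Slc24a2* differed by -0.22 for Nav1.7 minus Nav1.9 (adjusted p = 0.0485) and passed only without Nav1.7 KO replicate 3 (0.042) or Nav1.9 littermate replicate 2 (0.04). *Slc12a7* differed by -0.30 for Nav1.7 minus Nav1.9 (adjusted p = 0.0403) and passed in 5 of the 18 fits, those without Nav1.7 littermate replicate 2, Nav1.7 KO replicate 3, Nav1.8 littermate replicate 1 or 3, or Nav1.8 KO replicate 3, with adjusted p-values of 0.0172 to 0.101 over the 18. *Slc8b1* differed by 0.27 for Nav1.7 minus Nav1.9 (adjusted p = 0.0366) and was lost without Nav1.7 littermate replicate 1 or 2, Nav1.7 KO replicate 2 or 3, any of the 3 Nav1.9 littermates or Nav1.9 KO replicate 1 or 2, with adjusted p-values of 0.0247 to 0.0922 over the 18. *Slc12a9* differed by 0.27 for Nav1.7 minus Nav1.8 (adjusted p = 0.0375), higher in Nav1.7 KO and lower in Nav1.8 KO, and passed in 6 of the 18 fits, those without Nav1.7 littermate replicate 2, Nav1.8 littermate replicate 3, any of the 3 Nav1.9 littermates or Nav1.9 KO replicate 3.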

How the results depend on the processing

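At the thresholds of the study the count of transporter genes went from 7 to 1 in Nav1.7 KO, which is *Slc8a1*, and from 1 to 0 in Nav1.9 KO, and the differences went from 3 to 1 (Nav1.7 and Nav1.8) and from 6 to 1 (Nav1.7 and Nav1.9). With each line fitted alone, on fewer arrays, the counts were 4 in Nav1.7 KO and 0 in Nav1.9 KO. *Slc12a7* (adjusted p = 0.117), *Slc8b1* (0.108), *Slc9a2* (0.121) and *Slc9a9* (0.138) were lost there, and *Atp2b1* was gained (0.0411). The count in Nav1.8 KO was 0 under every alternative. Under the other alternatives that test 1 value per gene the count was 6 to 8 in Nav1.7 KO and 1 in Nav1.9 KO, and without single arrays it was 4 to 8 and 0 to 1. The count of 4 was that without Nav1.7 littermate replicate 1 or 3. The differences between Nav1.7 and Nav1.8 KO numbered 5 with dim genes left out, 1 as the mean of probe sets, 0 with the *Xist* class as a term, 0 with the low *Xist* arrays of the Nav1.8 line alone (which leaves 1 KO array, assumed to vary like the rest) and 1 to 3 without single arrays. Those between Nav1.7 and Nav1.9 KO numbered 3 with the *Xist* term and 3 to 6 without single arrays, and those between Nav1.8 and Nav1.9 KO were 0 throughout. Differences were not refitted with each line alone. *Slc9a2* was lost with the *Xist* term (0.0644). The regulators in Nav1.7 KO numbered 0 at the thresholds of the study and with each line alone, 1 with median centring, the mean of probe sets (*Cab39*, adjusted p = 0.0239, in place of both), the block or the *Xist* term, 3 with dim genes left out (with *Oxsr1*, 0.0396), and 1 to 2 without single arrays, and were 0 throughout in the other lines. Single probe sets turned the sign of *Atp1b2* (0.030) and *Slc12a8* (0.069) in Nav1.9 KO and of *Atp2a2* (0.016), *Slc4a4* (-0.15), *Slc8a1* (0.012) and *Slc9a9* (-0.17) in Nav1.7 KO. Where a construction is not named, the cause was not tested. The signal of dim probe sets over background is unknown.

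Same-numbered KO and littermate samples correlated in their deviations at 0.015 to 0.266 in the Nav1.7 line, -0.110 to 0.263 in the Nav1.8 line and -0.194 to 0.062 in the Nav1.9 line. Samples of different numbers gave -0.254 to 0.016, -0.262 to 0.229 and -0.261 to 0.242, so same numbers lay mostly higher in the Nav1.7 line. Deviations from a mean of 3 arrays are tied to each other, so these values cannot settle whether samples were paired. The main model did not pair them. With the replicate number as a block, 6 transporter genes passed for loss of Nav1.7, 0 for Nav1.8 and 1 for Nav1.9, 1 and 2 differed between Nav1.7 and the other lines, 0 between those, and *Slc8b1* was lost (adjusted p = 0.0551).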
